A study of Schizosaccharomyces pombe with 4 samples.

Results

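The genes described here are 10 targets of MBF, the transcription factor of fission yeast (Schizosaccharomyces pombe) that drives the burst of gene expression between G1 and S phase. They were taken by name as known targets, not by a cutoff on the values below, and are cdc18 (SPBC14C8.07c), cdt1 (SPBC428.18), cdc22 (SPAC1F7.05), cig2 (SPAPB2B4.03), mik1 (SPBC660.14), cdt2 (SPAC17H9.19c), ctp1 (SPCC338.08), dut1 (SPAC644.05c), tos4 (SPAP14E8.02) and rad21 (SPCC338.17c). The choice was made with earlier results of these data known. All 10 were found among the 4888 genes of the table. The values are from chromatin immunoprecipitation and tiling arrays (ChIP-chip), which measured where the RNA helicase Upf1 sits on the chromosomes. Upf1 carried a hemagglutinin (HA) epitope tag at its own locus and was recovered with an antibody against the tag. Of 4 arrays, 1 held immunoprecipitated (IP) DNA from cells passing through S phase together, 1 held IP DNA from an asynchronous culture without that treatment, and 2 held input DNA. The S-phase culture carried the mutation cdc25-22, was held at 37 °C for 3.5 h, which stops such cells in G2, and was fixed 60 min after release at 25 °C. The study lists a strain with both cdc25-22 and the HA tag on upf1. The labels do not say whether the asynchronous culture came from that strain. All cultures grew in YES medium.

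MBF binds short DNA elements called MluI cell cycle boxes (MCB) in the promoters of genes needed for DNA replication. Its core subunits are Cdc10, Res1 and Res2, with Rep2 as an activator, and the repressors Nrm1 and Yox1, whose own genes are targets, switch it off as S phase proceeds. In fission yeast G1 is short, and MBF targets are transcribed from the end of mitosis into S phase. Upf1 is best known for nonsense-mediated mRNA decay in the cytoplasm. The question put to the arrays was whether its presence on chromatin differs between a culture enriched in S-phase cells and one in which all stages are mixed.

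The MCB consensus is ACGCGT, and its first 5 bases (ACGCG) form a looser core. The core was searched on both strands from 250 bases before to 50 bases after the annotated transcript start, so that an ACGCGT counts as 2 overlapping cores, 1 on each strand. It was found at all 10 genes, with 1 to 7 copies and a median of 4.5, and 8 genes had at least 3 copies. Of 5112 promoters of protein-coding genes, 11.4% held the core and 1.10% held at least 3 copies. The full ACGCGT was found at 4 of the 10 genes (cdt2, cdc22, tos4 and cdt1) and in 3.25% of all promoters. The stretches that hold the copies are shown for the 5 genes with the largest Upf1 difference between the cultures and for ctp1, which had the smallest. They are written 5′ to 3′ on the gene's strand, with each core in capitals (CGCGT is the core read on the other strand), and were read from the RefSeq genome assembly ASM294v3 by gene identifier.
cdc18, chrII:2218011-2218128, minus strand: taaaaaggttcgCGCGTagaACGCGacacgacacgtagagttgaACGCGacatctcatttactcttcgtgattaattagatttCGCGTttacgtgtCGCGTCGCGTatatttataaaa
cig2, chrI:2709603-2709747, plus strand: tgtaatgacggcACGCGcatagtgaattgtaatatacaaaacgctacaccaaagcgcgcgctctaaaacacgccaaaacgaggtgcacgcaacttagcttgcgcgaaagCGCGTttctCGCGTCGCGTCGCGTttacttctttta
tos4, chrI:1922417-1922505, plus strand: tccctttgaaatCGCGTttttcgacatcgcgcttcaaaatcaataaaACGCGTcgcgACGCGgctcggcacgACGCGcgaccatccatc
cdc22, chrI:4226865-4226935, plus strand: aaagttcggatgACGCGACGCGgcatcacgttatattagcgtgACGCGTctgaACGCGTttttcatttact
cdt1, chrII:477298-477343, plus strand: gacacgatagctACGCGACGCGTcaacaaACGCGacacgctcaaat
ctp1, chrIII:1360269-1360297, minus strand: taggatggtagtCGCGTcgcgctttttgt

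The stretch of cdc22, with 6 copies, spans 105 to 35 bases before the transcript start, and that of cdt1, with 4 copies, spans 94 to 49 bases before it. In cig2 a run of 3 adjacent copies stood at the end of the stretch. The 39 copies of the 9 genes other than mik1 all lay upstream, with their first bases between 167 and 17 bases before the start. In mik1 the 3 copies lay 19 to 44 bases after the annotated start, and none was found in the 250 bases before it. The arrays gave 1 value per gene, so Upf1 signal was not resolved to these sites. The assembly behind the gene signals was not stated, and the coordinates place only the printed letters.

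**Figure D1:**
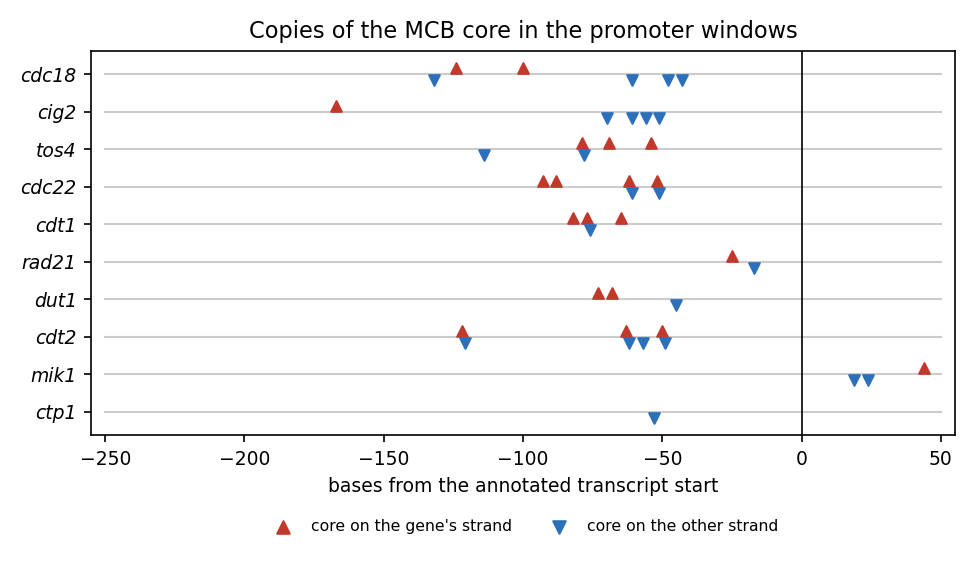
Positions of the MCB core in the promoters of the 10 MBF target genes, ordered by their Upf1 difference between cultures, with bases from the annotated transcript start on the x axis. Triangles pointing up mark cores on the gene's strand and those pointing down cores on the other strand. The copies of 9 genes lie upstream and the 3 copies of mik1 lie downstream of the start.

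Each deposited Upf1 value is the IP signal of a gene divided by its mean input signal. The median gene had a ratio of 0.195 in the S-phase column and 0.774 in the asynchronous column, and the IP arrays were not scaled to one another. The ratios were therefore taken as log2 and centred on the median gene of each column, and the S phase over asynchronous ratio was centred on its own median over genes. There was 1 IP array per culture, so no value has a replicate error and no difference was tested. The titles of the IP arrays also carry different dates, and only the S-phase culture had the arrest at 37 °C and the release at 25 °C. The date, this treatment, any difference in strain and the stage of the cells therefore cannot be told apart. As a yardstick, the standard deviation (SD) across all genes was 0.35 for the difference between the cultures, or 0.24 per array when divided by the square root of 2. It holds both array noise and any true differences between genes. It describes the difference of 1 gene, and a gap between the differences of 2 unrelated genes has a wider spread. In whole cultures, more cells in S phase and more Upf1 per cell cannot be told apart.

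Upf1 at the MBF targets was higher in S phase, relative to other genes, than in the asynchronous culture, where it was mostly near or below that of the median gene. Their log2 ratios relative to the median gene ran from 0.14 to 1.11 in S phase, with a median of 0.54, and from −0.28 to 0.20 in the asynchronous culture, with a median of −0.13. All 10 were above the median gene in S phase, whereas 2 were in the asynchronous culture. Among 4888 genes their ranks ran from 93 (cdc18) to 1792 (dut1) in S phase and from 1247 (ctp1) to 4092 (tos4) in the asynchronous culture. A ratio at least 1.5-fold above the median gene was found at 5 of the 10 genes in S phase, against 11.2% of all listed genes, and at 0 of the 10 in the asynchronous culture, against 5.14%. The S-phase count was 4 with the GC trend removed, against 8.20% of all genes in that setting, and cdc22 was then at 0.54. It was also 4 with the median of the 4 nearest genes subtracted, against 10.6% of all genes in that setting. There cdc22 was at 0.27, tos4 at 0.38 and cdt2 at 0.61, and mik1 turned to −0.097. Of the 10 genes, 4 (cdc18, cig2, tos4 and cdt1) were below the median in the asynchronous culture and at least 1.5-fold above it in S phase, a pattern shared by 0.675% of all genes.

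The difference between the cultures was positive at 10 of 10 genes, with a median of 0.61 and a range from 0.23 to 1.24 on the log2 scale. By construction 50.0% of all genes were higher in S phase after centring. A difference of at least 1.5-fold in favour of S phase was seen at 5 of the 10 genes (cdc18, cig2, tos4, cdc22 and cdt1), against 3.78% of all genes. No MBF target was at least 1.5-fold lower in S phase, against 4.03% of all genes. In all, 4 of them (cdc18, cig2, tos4 and cdc22) were among the 50 highest differences. With the ratios as deposited, without centring, all 10 were lower in S phase, with a median of −1.37, and the median gene itself was 3.95-fold lower in the S-phase column. When each column was centred on the 25% of genes with the least Pol II, the median of the 10 in the asynchronous culture turned to 0.068.

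**Figure D2:**
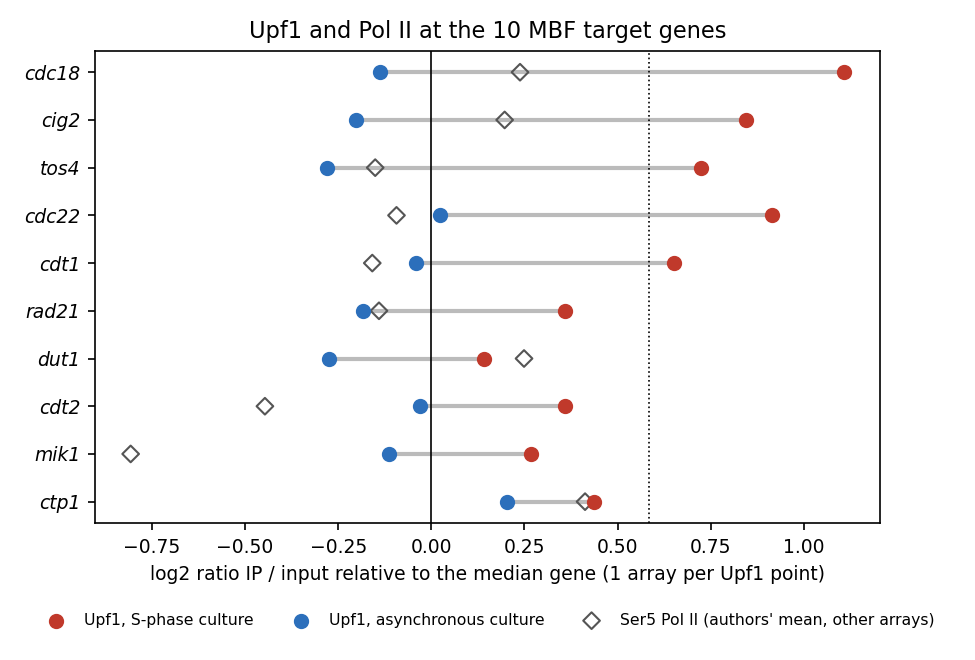
Upf1 at the 10 MBF target genes in the S-phase culture (red) and the asynchronous culture (blue), with the Ser5 Pol II ratio of other arrays (open diamonds), as log2 IP over input relative to the median gene. Each point is 1 value without error, and the dotted line marks 1.5-fold. The red points lie between 0.14 and 1.11, and each lies to the right of the blue point of the same gene.

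The 2 genes for licensing of replication origins were both past 1.5-fold. The protein of cdc18, the counterpart of Cdc6 in other species, loads the MCM helicase onto origins together with Cdt1. The deposited ratio of cdc18 was 0.420 in S phase and 0.704 in the asynchronous culture, or 1.11 and −0.14 relative to the median gene. The difference was 1.24 (2.36-fold), rank 16 of 4888, and the S-phase value was the highest of the 10 genes. For cdt1 the deposited ratio was 0.306 in S phase and 0.752 in the asynchronous culture, which is 0.65 and −0.042 relative to the median gene. Its difference was 0.68 (1.61-fold), rank 124. It was the gene with the lowest RNA level of the 10, at an FPKM of 11.0 in the authors' RNA column, where the median gene had 41.0.

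The 2 genes that act on the kinase Cdc2 differed from each other in the size of the shift. The product of cig2 is the B-type cyclin that promotes S phase with Cdc2. Its deposited ratio was 0.350 in S phase and 0.674 in the asynchronous culture, and the centred values were 0.84 and −0.20. The difference of 1.04 (2.05-fold) had rank 28. Mik1 is a tyrosine kinase that inhibits Cdc2 and holds back mitosis while DNA is replicated. The deposited ratio of mik1 was 0.235 in S phase and 0.716 in the asynchronous culture, with centred values of 0.27 and −0.11. The difference of 0.37 (1.30-fold, rank 516) was smaller than that of cig2 by more than the SD of 0.35, and was itself near that SD. Both genes lay below the median in the asynchronous culture.

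The next 3 genes serve the supply of deoxynucleotides. Cdc22 is the large subunit of ribonucleotide reductase, Dut1 is the dUTPase that keeps uracil out of DNA, and Cdt2 is the substrate receptor of the ubiquitin ligase that removes the reductase inhibitor Spd1 in S phase. The deposited ratio of cdc22 was 0.367 in S phase and 0.786 in the asynchronous culture, or 0.91 and 0.022 relative to the median gene, with a difference of 0.88 (1.85-fold, rank 49). For cdt2 the deposited ratio was 0.250 in S phase and 0.758 in the asynchronous culture, or 0.36 and −0.031 after centring, with a difference of 0.38 (1.30-fold, rank 493). For dut1 it was 0.215 in S phase and 0.640 in the asynchronous culture, or 0.14 and −0.27 after centring, with a difference of 0.41 (1.33-fold, rank 438). The difference of cdc22 exceeded those of cdt2 and dut1 by more than the SD of 0.35, which is narrower than the spread of such a gap. The differences of cdt2 and dut1 were themselves close to that SD. At 591 bases dut1 is the shortest of the 10 genes and falls in the shortest 10% of all genes, in which the SD of the difference between cultures was 0.51, against 0.27 in the longest 10%.

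The remaining 3 genes act on chromosomes. Rad21 is the subunit that closes the cohesin ring, Ctp1 works with the Mre11 complex in the resection of DNA breaks, and Tos4 has a forkhead-associated domain and binds histone deacetylases in budding yeast. The deposited ratio of tos4 was 0.322 in S phase and 0.638 in the asynchronous culture, and its centred values were 0.72 and −0.28. Its asynchronous value was the lowest of the 10 genes, and its difference of 0.99 (1.99-fold) had rank 33. The deposited ratio of rad21 was 0.250 in S phase and 0.682 in the asynchronous culture, with centred values of 0.36 and −0.18 and a difference of 0.54 (1.45-fold, rank 231). The deposited ratio of ctp1 was 0.264 in S phase and 0.892 in the asynchronous culture, with centred values of 0.44 and 0.20 and a difference of 0.23 (1.17-fold, rank 1025). The difference at ctp1 was smaller than the SD of 0.35, and its asynchronous value was the highest of the 10.

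In order of the difference between cultures the genes were cdc18, cig2, tos4, cdc22, cdt1, rad21, dut1, cdt2, mik1 and ctp1. No 2 neighbours in this order differed by more than 0.20, which is within the SD of 0.35, whereas the ends of the order were 1.01 apart. The 10 genes were more alike in the asynchronous culture, with an SD of 0.15 across genes, than in S phase, where the SD was 0.32. Over all genes the S-phase values were also the more spread, with an SD of 0.48 against 0.34 in the asynchronous culture. With the S-phase values shrunk to the spread of the asynchronous ones, 4 genes were at least 1.5-fold higher in S phase, against 1.82% of all genes in that setting, and cdc18 was highest at 0.92. In that setting cdt1 was at 0.50, below the threshold of 0.58.

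**Figure D3:**
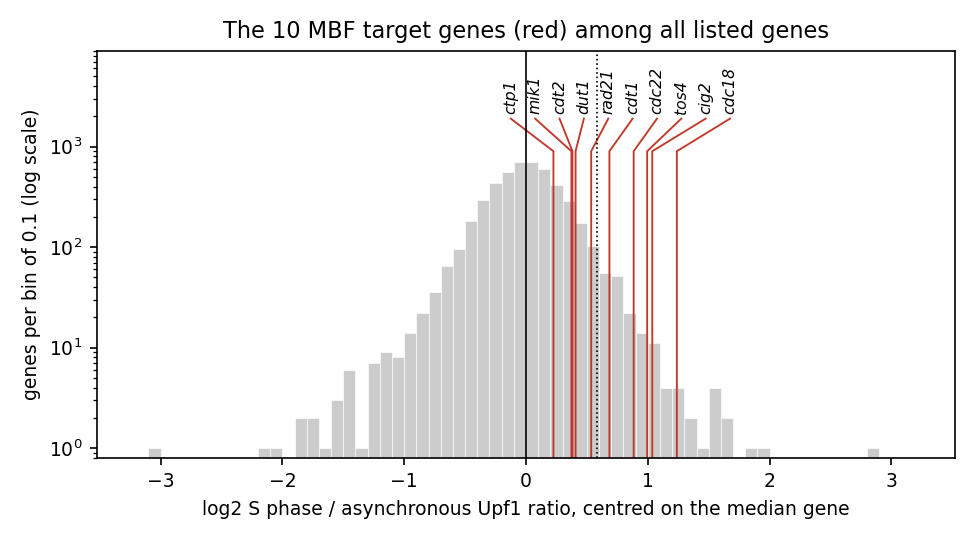
Histogram of log2 S phase over asynchronous Upf1 for all 4888 genes, centred on the median, with the 10 MBF target genes as red lines. The y axis is logarithmic and the dotted line marks 1.5-fold. The red lines lie between 0.23 and 1.24, all to the right of the median gene.

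Pol II loading and RNA level were read from 2 further columns, which the authors had averaged from published arrays for Pol II phosphorylated on Ser5 and from published RNA-seq. Neither column holds a value for the S-phase culture. The Pol II log2 ratios of the 10 genes ran from −0.81 at mik1 to 0.41 at ctp1 relative to the median gene, with a median of −0.12, and 4 of them were above the median gene (ctp1, dut1, cdc18 and cig2). The deposited Pol II ratio was 0.312 at mik1, 0.401 at cdt2, 0.490 at cdt1, 0.492 at tos4 and 0.496 at rad21. It was 0.512 at cdc22, 0.627 at cig2, 0.645 at cdc18, 0.650 at dut1 and 0.728 at ctp1, and the median gene had 0.547. By Pol II the MBF targets ranked between 1132 (ctp1) and 4584 (mik1) of 4888 genes, and none was 1.5-fold above the median.

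The RNA levels, deposited by the authors as the natural log of FPKM + 1, had a median of 3.42 over the 10 genes against 3.74 over all genes. Only cdc22 (5.28), dut1 (4.97) and tos4 (4.44) were above the median gene. The levels were 3.48 at cdc18, 3.45 at cig2, 3.39 at rad21, 3.36 at ctp1, 3.11 at mik1, 3.03 at cdt2 and 2.48 at cdt1. As FPKM, which is a level per length, they ran from 11.0 at cdt1 to 195 at cdc22. Across the 10 genes, Spearman's rho between the Upf1 difference and the Pol II ratio was 0.14 and that with RNA level 0.47. These are descriptions over 10 genes that share their arrays.

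Upf1 was also set against the value expected from Pol II, taken from a smooth (lowess) trend of each Upf1 column on the Pol II ratio over all genes. In S phase all 10 genes lay above the trend, by 0.054 at dut1 to 1.03 at cdc18. In the asynchronous culture 5 lay above and 5 below, from −0.34 at dut1 to 0.14 at cdt2. The genes with the least Pol II, mik1 and cdt2, were 0.57 and 0.58 above the trend in S phase and 0.099 and 0.14 above it in the asynchronous culture. The median difference between the cultures was 0.66 after removal of the trend and 0.61 before it. The Pol II column comes from other cultures, and the part of transcription in S phase was not tested.

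Other genes of MBF and of the same processes were placed beside the 10 targets. The 2 co-repressor genes, which are targets too, had differences of 0.63 at nrm1, which was past 1.5-fold, and 0.47 at yox1. A list of 8 further genes with expression at G1-S (among them suc22, pol1, ssb1, psm3, mrc1, msh6 and eso1) had a median of 0.20, and every one of the 8 was higher in S phase. None of these 8 was past 1.5-fold. Among those named, ssb1, for the large subunit of the single-strand DNA binding protein RPA, was at 0.28, and pol1, for the catalytic subunit of DNA polymerase alpha, was at 0.26. The smallest was mrc1, the replication checkpoint mediator, at 0.068. These values are within the SD of 0.35. All 8 lay above the median gene in S phase (0.017 to 0.47), and 3 did so in the asynchronous culture.

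Of the 4 genes for MBF itself, rep2 (0.50), res1 (0.49) and cdc10 (0.15) were higher in S phase, and res2 was at −0.24. None reached 1.5-fold in either direction. The median over these 4 genes was 0.32.

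The genes for partners of the encoded proteins lay mostly below the median gene in the difference between cultures. The 12 genes for the origin recognition complex (ORC) and the MCM helicase, with which Cdc18 and Cdt1 act, had a median difference of −0.071 and a range from −0.40 at orc3 to 0.10 at mcm3. The genes of the ligase that holds Cdt2 were at −0.39 (ddb1) and −0.58 (pcu4), and spd1, for the inhibitor it removes, was at −0.40. The genes of the Mre11 complex, which works with Ctp1, were at −0.28 (mre11), −0.22 (rad50) and −0.14 (nbs1). Among the cohesin partners of Rad21, psm1 was at 0.22 and psc3 at 0.35. The gene of Cdc2, the partner of Cig2, was at −0.19 and wee1, for another kinase that inhibits Cdc2, at 0.16. The 22 partner genes had a median of −0.13, with 6 higher in S phase, 16 lower and none past 1.5-fold in either direction. The ranges of the 10 targets (0.23 to 1.24) and of the 22 partners (−0.58 to 0.35) overlapped only at ctp1 and psc3. That depends on the lists, since psm3 (0.24) and suc22 (0.14) were placed among the G1-S genes above. Their products are also partners, of Rad21 and of Cdc22, and psm3 would fall within the overlap. This contrast was not tested, since genes on 1 pair of arrays are not replicates.

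The core histone genes, which are also transcribed in S phase, are a second point of comparison. Their median difference was 0.59, close to the 0.61 of the MBF targets, with 8 of 9 higher in S phase and 5 past 1.5-fold. They differed from the MBF targets in level. The histone genes were above the median gene in both cultures, with medians of 1.12 in S phase and 0.54 in the asynchronous culture, whereas the MBF targets had 0.54 and −0.13. Their median Pol II log2 ratio was 0.95, against −0.12 for the MBF targets. After removal of the Pol II trend the median difference was 0.40 at the histone genes and 0.66 at the MBF targets, so the closeness did not hold there. Copies of a histone gene are near-identical, and their array values may share signal.

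**Figure D4:**
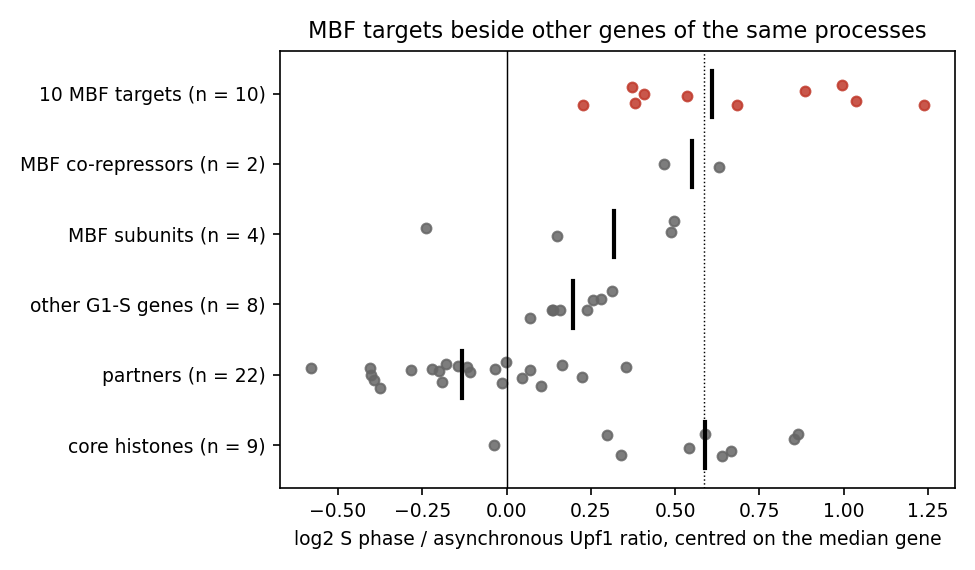
Log2 ratio of S phase over asynchronous Upf1, relative to the median gene, for the 10 MBF targets (red) and for lists of related genes (grey). Each point is 1 gene, black bars are list medians and the dotted line marks 1.5-fold. The MBF targets have a median of 0.61 and the 22 partner genes one of −0.13.

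Whether a shift was limited to the gene or shared by its surroundings was described from the 2 listed genes on each side. The 40 neighbours had a median difference of 0.12, and 29 were on the S-phase side of the median gene. At 6 of the 10 targets (cdc18, cig2, tos4, cdt1, dut1 and ctp1) the target was higher than all 4 of its neighbours. The share of all genes that exceed their 4 neighbours was not counted. At ctp1 the margin was slight, with 0.23 for the gene beside 0.21 for its highest neighbour. At cdc18 the neighbours ran from 0.067 to 0.48 beside 1.24 for the gene, at cig2 from −0.16 to 0.37 beside 1.04, and at tos4 from −0.34 to 0.27 beside 0.99. The surroundings of these 3 genes were well below the gene itself. Since these 3 had the highest differences of the 10, lower neighbours follow largely from that height.

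The position of cdc22 was different. The next 2 listed genes, fip1 (0.89) and fio1 (0.82), which encode the iron permease and ferroxidase of the uptake system, were close to cdc22 itself at 0.88. On its other side rho1 was at 0.078 and pkd2 at 0.26. With the median of the 4 neighbours subtracted, cdc22 was left with 0.35. A further 3 neighbours were past 1.5-fold, namely prl62 (1.59), 2 places from mik1, SPAC607.02c (0.81), 2 places from cdt2, and gdh2 (0.76), 2 places from rad21. Both inputs are labelled as having had no treatment, so a higher DNA amount in S phase and more Upf1 cannot be told apart at any of these genes.

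**Figure D5:**
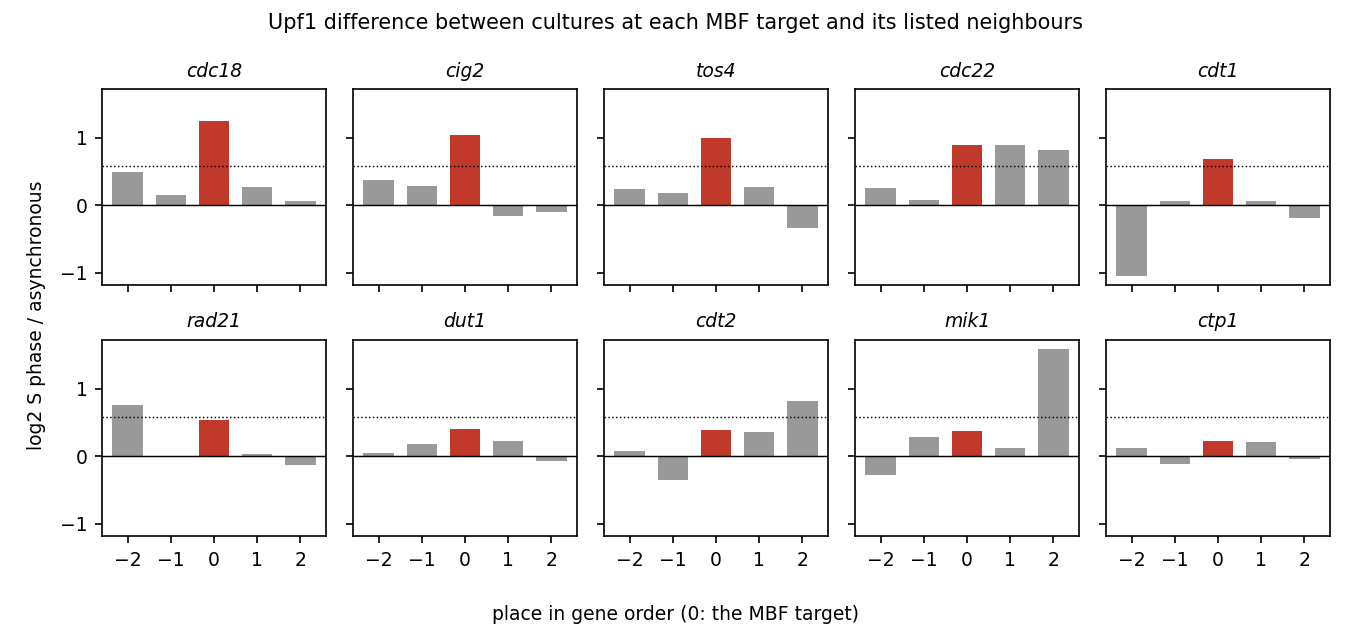
Log2 ratio of S phase over asynchronous Upf1 at each MBF target (red, place 0) and at the 2 listed genes on each side in gene order (grey), relative to the median gene. The dotted line marks 1.5-fold. At cdc18 the neighbours reach 0.48 beside 1.24 for the gene, whereas fip1 beside cdc22 reaches 0.89.

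Shared signal between genes was checked from the annotation. No 25-base word of the 10 genes, the length of the array's probes, occurred elsewhere in the assembly. Of the 10 genes, 5 overlap another protein-coding gene (cig2, rad21, dut1, cdt2 and mik1). The annotated span of dut1 lies wholly inside that of pct1 on the other strand, and the differences were 0.41 at dut1 and 0.18 at pct1. In cig2, 33.3% of the gene overlaps pmc1, which was at −0.16 beside 1.04 for cig2. In rad21, 28.7% overlaps pof3, which was at 0.025 beside 0.54. Annotated long non-coding RNAs overlap 7 of the 10 genes, and at cdc22 and ctp1 they cover the whole gene (100%). Arrays do not separate strands of genomic DNA, so overlapping parts carry 1 shared signal. The gene signals were not split by probe here.

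The number of MCB cores was next set beside the Upf1 difference. Across the 10 genes Spearman's rho was 0.54, as a description of 10 genes. The 5 genes past 1.5-fold had 4 to 6 copies. Among the other 5, cdt2 had 7 copies with a difference of 0.38, dut1 and mik1 had 3, rad21 had 2 and ctp1 had 1. The highest count of cores, at cdt2, thus did not go with the highest difference. That count depends on the way of counting, since the 7 cores of cdt2 hold 3 ACGCGT, each counted as 2 cores. The 6 cores of cdc18, the gene with the highest difference, hold no ACGCGT.

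The 5 genes whose profile was closest to the median profile of the 10 targets, by Euclidean distance over 3 values (Upf1 in S phase, Upf1 in the asynchronous culture and Pol II), were SPBC27.05, chs2, SPBC25B2.08, rcd1 and tvp23. Their distances ran from 0.049 to 0.13, and those of the 10 targets themselves from 0.14 at cdt1 to 0.74 at mik1. The differences between the cultures at these 5 genes lay between 0.56 and 0.78. Since the 5 genes were chosen on the Upf1 values of both cultures, differences near the 0.61 of the targets followed from the choice. So did their small distances.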

How the data were processed

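Upf1-HA ChIP DNA of an S-phase and an asynchronous culture (1 array each) and 2 inputs had been hybridised to Affymetrix tiling arrays. The authors reduced probe intensities to gene signals with the statistical algorithm of Affymetrix, brought both inputs to 1 median, took their mean and used it as the denominator, and the deposited Upf1 columns are linear ratios. Of 2 IP arrays per culture, the authors kept the one of better quality. The Pol II ratio was made by the authors in the same way from published arrays, and the RNA column is deposited as the natural log of FPKM + 1, averaged over 2 published libraries. The natural base was settled from the values, since FPKM times gene length in kb summed to 917640 with that base and to 177503 with base 2. The genome build is not given in the sources used here. Gene identifiers were matched to RefSeq ASM294v3 (4844 of 4888), which supplied names, lengths, gene order, GC content and promoter sequence. Ratios were converted to log2 and centred on the median gene. All per-sample columns were used.

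With 1 IP array per culture no test was run, calls mean at least 1.5-fold, and the number of arrays limits the precision. Alternatives changed the centring, spread, trends, gene filters, threshold and promoter window, and the last was added after the data were seen. The 10 genes, the lists beside them and the rules for named genes (all members, their neighbours, list genes and the 5 nearest profiles) were chosen with earlier results of these data known. Python 3.11.15 with pandas 2.3.3, statsmodels 0.14.6 (lowess over a fraction of 0.4) and matplotlib 3.10.9 was used. The value of 1 gene in the lists is not reported here.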

Additional observations from a re-analysis of the deposited data

Results flagged for a closer look

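These results are listed because the value was above the median gene in S phase and below it in the asynchronous culture. The difference between the cultures was not tested, since each had 1 IP array, and genes near the median meet this condition easily. The share of all genes that meet this condition was not counted. Of the 10 genes, 8 were above the median gene in S phase and below it in the asynchronous culture. Their S phase over asynchronous differences on the log2 scale were 1.24 at cdc18, 1.04 at cig2, 0.99 at tos4, 0.68 at cdt1, 0.54 at rad21, 0.41 at dut1, 0.38 at cdt2 and 0.37 at mik1. The median over all 10 genes also changed side, with a difference of 0.61. In the asynchronous culture 6 of these 8 differed from the median gene by less than the per-array spread of 0.24, from −0.031 at cdt2 to −0.20 at cig2, and dut1 (−0.27) and tos4 (−0.28) by more. The remaining 2 genes, cdc22 and ctp1, were above the median gene in both cultures, with asynchronous values of 0.022 and 0.20. That of cdc22 turned to −0.23 with the GC trend removed and to −0.13 with the median of the 4 nearest genes subtracted.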

How the results depend on the processing

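The positive sign of the difference held at each of the 10 genes wherever a gene was kept, over 8 alternatives that compare genes within a column, and the members' median lay between 0.43 and 0.70. Among these, the other centrings and the gene filters moved the differences of all genes by the same constant. That constant was too small to turn a sign, so only the remaining alternatives bear on it. With the ratios as deposited, whose median gene had 0.195 in S phase and 0.774 in the asynchronous culture, the values of the 10 genes were all negative. The median was then −1.82 in S phase, −0.49 in the asynchronous culture and −1.37 for their difference, and 0 genes were higher in S phase, 0 were 1.5-fold higher there and 0 were 1.5-fold enriched in S phase. The differences became −0.74 at cdc18, −0.95 at cig2, −0.99 at tos4, −1.10 at cdc22 and −1.30 at cdt1, and the S-phase values −1.25, −1.52, −1.64, −1.45 and −1.71 in the same order. Over all genes 1 was then 1.5-fold higher and 4878 lower. Centring on the 25% of genes with least Pol II gave an S-phase median of 0.80 with 8 genes 1.5-fold enriched in S phase, against 22.7% of all genes in this setting, and it turned the asynchronous median to 0.068. It put 285 genes at least 1.5-fold higher in S phase, against 185, and the share of higher among all such calls at 68.7%, against 48.4%. Scaling of the S-phase ratios to the asynchronous spread left 3 genes enriched in S phase, against 5.03% of all genes, and 89 of all genes 1.5-fold higher there. At a threshold of 25% above the median gene, 8 genes were enriched in S phase (23.1% of all genes) and 9 were higher than in the asynchronous culture (13.8%), and at 2-fold 1 (2.97%) and 2 (0.634%). The core was found in 9 promoters with the 250 upstream bases alone (not mik1), against 9.47% of all promoters. With 1000 bases before the start codon it was found in 9 (not cig2), against 28.1% of all promoters. Leaving out short genes dropped dut1, and leaving out genes of low RNA level dropped cdt1. No paired analysis was possible because each culture has 1 IP array, and for the same reason no array could be left out. The input arrays are not listed separately.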

Other observations

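The MCB core was also counted over all 4729 listed genes with a promoter window. Without the 10 targets, the median S phase over asynchronous difference was 0.0023 for 4180 genes with no copy, 0.017 for 355 with 1 copy, −0.024 for 143 with 2 copies and 0.068 for 41 with at least 3 copies. At least 1.5-fold higher in S phase were 3.47% of the genes with no copy and 2 of the 41 with at least 3 copies. These 2 were nrm1 (0.63) with 3 copies and the histone gene hta1 (0.87) with 4. Of the 171 genes with a window that were 1.5-fold higher in S phase, 26 (15.2%) held the core, against 11.6% of all 4729, and of the 7 with at least 3 copies 5 were among the 10 targets. These counts were made after the data were seen and are given without a test.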
